A study of Mus musculus with 2 samples.

Results

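The respiratory chain subunits that the mouse nuclear genome encodes, with cytochrome c and the assembly factors that share their gene names, were read out in sorted haematopoietic stem cells (HSCs) of bone marrow. Members were the protein-coding genes with symbols that start with Nduf, Sdha, Sdhb, Sdhc, Sdhd, Uqcr, Cox4i, Cox5, Cox6, Cox7, Cox8 or Atp5, together with Cyc1 and Cycs. The rule found 100 of the 54531 genes in the table. By role these were 87 genes for subunits and cytochrome c and 13 for assembly or accessory factors. One library came from Cdh5-Cre;Angptl2fl/fl mice, in which Cre recombinase under the Cdh5 (endothelial cadherin) promoter meets floxed Angptl2 alleles, described in the labels as an endothelial deficiency of this secreted angiopoietin-like protein (the deletion library). The other came from Angptl2fl/fl mice (the control library), although its description and column name carry Cdh5 and Cre and no floxed allele, so it is not settled whether these mice carried Cre. HSCs descend from embryonic endothelium in which Cdh5 is active, and the labels do not say whether the HSCs kept Angptl2. Age, sex, treatment other than genotype, the sort markers and the number of mice per library were not stated.

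The respiratory chain passes electrons from NADH (complex I) and succinate (complex II) through ubiquinone to complex III, from there by cytochrome c to complex IV, and so to oxygen. The proton gradient that complexes I, III and IV build drives ATP synthase, complex V. Mitochondrial DNA encodes the hydrophobic cores of complexes I, III, IV and V, while the nucleus encodes all of complex II and most subunits of the others, so that each shared complex needs products of both genomes. Adult HSCs are known for low reliance on oxidative phosphorylation while quiescent and for turning it up when they enter the cell cycle and differentiate.

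Values are the FPKM that the authors deposited, which divide a gene's fragments by its length and by the library's depth. Whole fragment numbers recovered from FPKM and exon length put the depth at 16843100 fragments for the deletion library and 17378600 for the control library. With 1 library per genotype there is no replicate error and no test across samples. Where a fragment number was recovered, a 95% Clopper-Pearson interval gives counting error only, and "higher" and "lower" describe these libraries. A log2 ratio is that of FPKM + 1 in the deletion library over FPKM + 1 in the control library, for genes whose mean reached 1 FPKM, and a fold is the plain ratio of FPKM. As a check of the cell type label, 11 of 12 HSC markers reached that mean and summed to 113 FPKM in the deletion library and 129 FPKM in the control library. All 11 had a log2 ratio below 0. Markers of maturing cells were measured too. Primary granule genes (Mpo, Elane, Prtn3, Ctsg and Ms4a3) summed to 2681 FPKM in the deletion library and 1021 FPKM in the control library, and 7 later granule genes to 427 FPKM in the deletion library and 1094 FPKM in the control library. The 6 megakaryocyte markers summed to 149 FPKM in the deletion library and 56.1 FPKM in the control library, 8 macrophage and monocyte markers to 109 FPKM in deletion and 282 FPKM in control HSCs, 8 erythroid markers to 2137 FPKM in deletion and 1845 FPKM in control HSCs, and 6 B and plasma cell markers to 60.3 FPKM in deletion and 62.9 FPKM in control HSCs. Of all these markers only Gp1bb was listed at 0, in the deletion library, and Slamf1 (0.550 FPKM in deletion and 0.402 FPKM in control HSCs) was the HSC marker under 1 FPKM. These values move between the libraries beside every ratio below, and their part in it was not tested. In a bulk library, a difference in the cells sampled and a difference in RNA per cell cannot be told apart.

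Subunit mRNAs of the nuclear genome were mostly slightly higher in the deletion library. Of the 87 subunit genes, 80 reached a mean of 1 FPKM, and 68 of these had a log2 ratio above 0 and 12 below. None of the 80 had a log2 ratio of FPKM + 1 at or past 2-fold in either direction, against 2.47% and 3.38% of 12325 genes overall and 0.488% and 0.752% of 10237 protein-coding genes. The median log2 ratio was 0.17, against -0.01 over all genes. At 1.5-fold on the same FPKM + 1 scale, 6 subunits were higher and 0 lower, or 7.50% of the 80, against 5.74% higher and 6.08% lower over all genes, and 2.54% higher and 2.75% lower over protein-coding ones. Those 6 were Uqcrb, Ndufs5, Cycs, Ndufc1, Ndufb6 and Ndufa4, and on plain FPKM the weakly expressed Cox7a1 also passed, at 1.59-fold. The counting interval lay above equality for 45 of the 74 subunits that had one and below it for 5 (Cox6b2, Ndufa2, Ndufs7, Atp5d and Atp5b). Over protein-coding genes those shares were 27.4% and 31.5%, and 47.9% had a ratio above 0. The size of the difference depends on the scaling. When each library was rescaled to the same total, the median of all genes moved by -0.14 and that of the subunits became 0.027, with 45 of 80 above 0. Relative to the median of all genes, 70 of 80 subunits were then higher, and 71 of 80 as deposited. Summed over the 87 genes, subunit mRNA was 7215 FPKM in the deletion library and 6453 FPKM in the control library, a share of 1.72% of all FPKM in deletion and 1.70% in control HSCs.

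**Figure D1:**
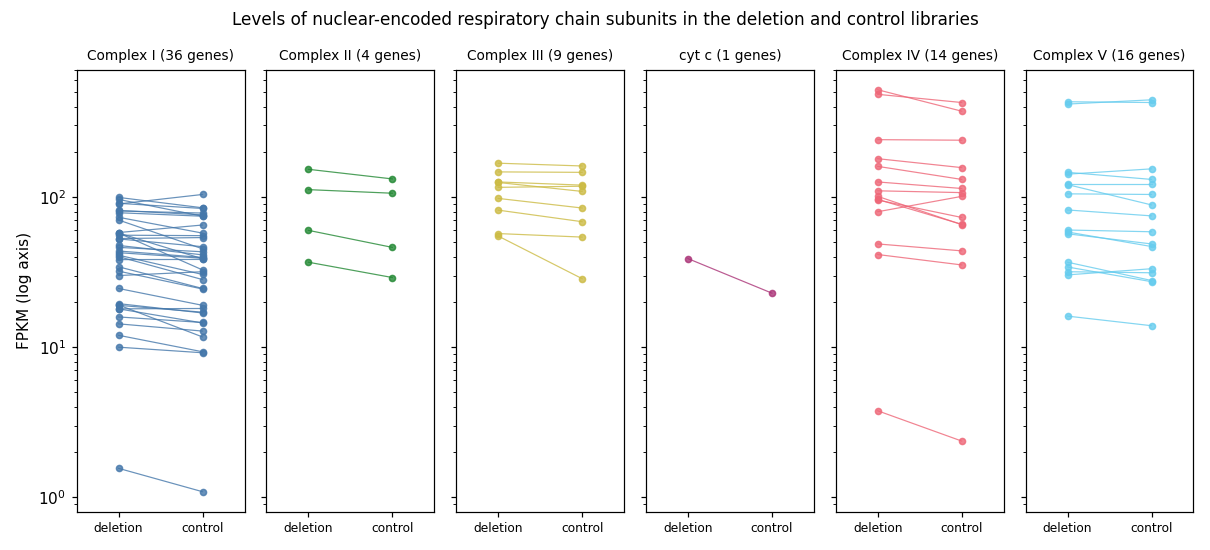
FPKM (log axis) of the 80 measured subunit genes in the deletion library (left in each panel) and the control library (right), with a line per gene and a panel per complex. Most lines drop slightly towards the control library, and levels within a complex of I to V span a far wider range than the differences between libraries.

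**Figure D2:**
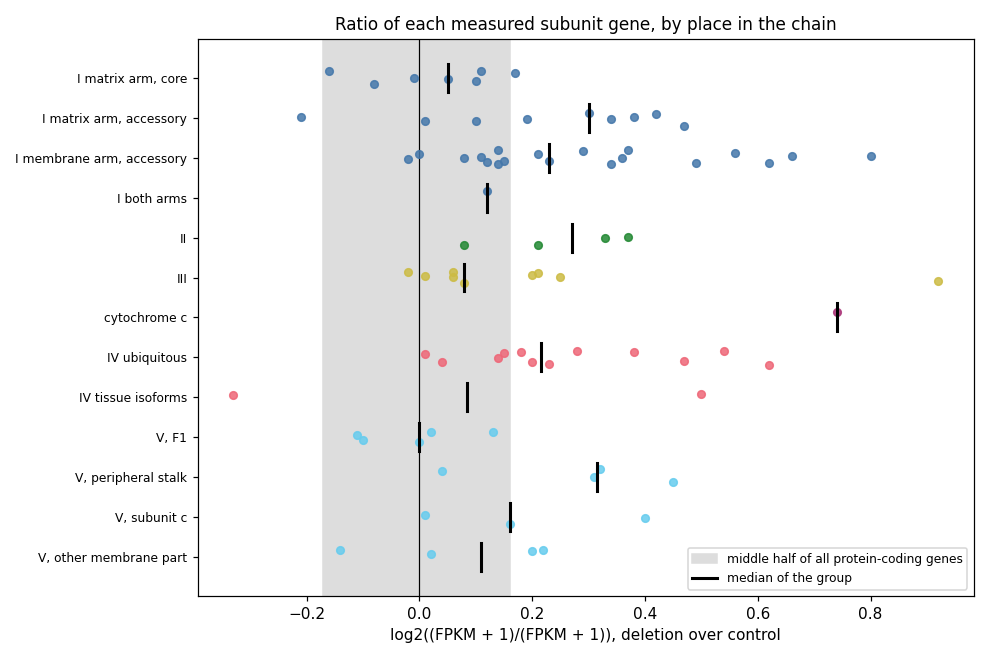
Log2 ratio of FPKM + 1, deletion over control, for each measured subunit gene, grouped by place in the chain, with black bars at group medians and a grey band from -0.17 to 0.16 between the quartiles of protein-coding genes. The complex I core and the F1 part of complex V lie around 0, while the accessory subunits of complex I, the ubiquitous complex IV subunits and the peripheral stalk lie mostly to the right.

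Complex I oxidises NADH. Its 36 nuclear subunit genes all reached 1 FPKM, with levels between 1.56 and 99.4 FPKM in the deletion library and between 1.09 and 104 FPKM in the control library, and a median log2 ratio of 0.16 (30 above 0, 6 below), which became 0.017 when each library was rescaled to the same total. The 7 core subunits, which form the electron path of the matrix arm, were near equality, with a median of 0.05 and 4 of 7 above 0. Ndufv1, which binds NADH and the flavin, had 80.8 FPKM in the deletion library and 78.2 FPKM in the control library. Ndufs1, the largest iron-sulfur subunit, was at 18.0 FPKM in deletion and 18.1 FPKM in control HSCs. Ndufs7, an iron-sulfur subunit near the ubiquinone site, was the lowest of the core, at 58.0 FPKM in the deletion library and 65.1 FPKM in the control library (0.892-fold, interval 0.835 to 0.952). Other core genes differed little too. Ndufs3 had 30.0 FPKM in the deletion library and 31.8 FPKM in the control library, Ndufs8 stood at 81.4 FPKM in deletion and 76.1 FPKM in control HSCs, and Ndufv2 stood at 52.6 FPKM in deletion and 46.7 FPKM in control HSCs.

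The 29 accessory subunits of complex I, which surround the core and stabilise it, had a median log2 ratio of 0.23, with 26 above 0. Accessory subunits of the membrane arm had a median of 0.23 over 19 genes and those of the matrix arm 0.30 over 9 genes, so both arms lay above the core. Median exon length was 1092 bp and 1801 bp in these groups and 2178 bp in the core, and the contrast was not adjusted for length. Ndufs5 (860 bp of exon on chromosome 4, 123712710 to 123718202, minus strand, GRCm38), which sits on the intermembrane side of the membrane arm, was highest. It had 57.6 FPKM in the deletion library and 32.7 FPKM in the control library, from 834 fragments in deletion and 489 in control HSCs (1.76-fold, interval 1.57 to 1.97). Ndufc1 and Ndufb6, small membrane arm subunits, followed. Ndufc1 stood at 19.1 FPKM in the deletion library and 11.7 FPKM in the control library (1.63-fold, interval 1.41 to 1.89). Ndufb6 stood at 70.3 FPKM in deletion and 45.2 FPKM in control HSCs (1.55-fold, interval 1.39 to 1.74), and 39.0% of its exonic bases are shared with Smim27 on the opposite strand, which was at 2.22 FPKM in deletion and 2.55 FPKM in control HSCs. Ndufc2, the partner of Ndufc1, was just short of 1.5-fold at 57.6 FPKM in the deletion library and 38.8 FPKM in the control library. Below 0 lay Ndufa10 (0.985-fold) and Ndufa3 (0.999-fold), both near equality, and Ndufa2. Ndufa2 was the only accessory subunit with an interval below equality. This small matrix arm subunit was also the most abundant nuclear gene of the complex by mean FPKM. It stood at 89.9 FPKM in the deletion library and 104 FPKM in the control library (0.862-fold, interval 0.787 to 0.945).

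Complex II, succinate dehydrogenase, is shared with the citric acid cycle and has 4 subunits, all nuclear. All 4 were higher in the deletion library with intervals above equality, against 27.4% of protein-coding genes with such an interval. The median log2 ratio was 0.27. Sdha, the flavoprotein that oxidises succinate, moved least, at 112 FPKM in the deletion library and 106 FPKM in the control library. Sdhb, the iron-sulfur subunit, moved most, at 60.0 FPKM in the deletion library and 46.2 FPKM in the control library (1.30-fold, interval 1.22 to 1.38). The membrane anchors that bind ubiquinone lay between, with Sdhc at 36.8 FPKM in deletion and 29.1 FPKM in control HSCs (1.26-fold) and Sdhd at 153 FPKM in deletion and 132 FPKM in control HSCs (1.16-fold). Sdhd was the most abundant of the 4 and Sdhc the least, in both libraries. When each library was rescaled to the same total, Sdha was below equality, at a log2 ratio of -0.062.

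Complex III moves electrons from ubiquinol to cytochrome c. The 9 nuclear genes had a median log2 ratio of 0.075, with 8 above 0, and 1 gene stood far from the others. The median became -0.071 when each library was rescaled to the same total, with Uqcr10 at -0.090 and Uqcr11 at -0.13, and 0.0070 when mitochondrially encoded genes were left out of the scaling. The gene that stood apart was Uqcrb (876 bp of exon, chromosome 13, 66900617 to 66905378, minus strand, GRCm38), a small subunit that contributes to ubiquinone binding. It had 55.0 FPKM in the deletion library and 28.6 FPKM in the control library, from 811 fragments in deletion and 436 in control HSCs. At 1.92-fold (interval 1.71 to 2.16) it had the highest ratio of all measured nuclear-encoded subunits. Next came Uqcrc2 at 81.8 FPKM in deletion and 68.5 FPKM in control HSCs (1.19-fold) and Uqcrh, the hinge protein, at 97.9 FPKM in deletion and 84.5 FPKM in control HSCs (1.16-fold). The redox subunits followed. Cyc1, cytochrome c1, had 125 FPKM in the deletion library and 109 FPKM in the control library (log2 ratio 0.20, interval 0.14 to 0.26), and Uqcrfs1, the Rieske iron-sulfur protein, was at 126 FPKM in deletion and 120 FPKM in control HSCs with an interval that included equality. Uqcrc1, a core protein, was the only 1 of the 9 below 0, at 116 FPKM in the deletion library and 118 FPKM in the control library. Uqcr10, the most abundant of the 9, stood at 168 FPKM in deletion and 161 FPKM in control HSCs, and Uqcr11 at 147 FPKM in deletion and 146 FPKM in control HSCs.

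Cycs, the soluble cytochrome c that links complexes III and IV and also triggers the apoptosome when released, was 1.70-fold higher in the deletion library (chromosome 6, 50562563 to 50566538, minus strand, GRCm38). It stood at 38.9 FPKM in the deletion library and 22.9 FPKM in the control library, from 2230 fragments in deletion and 1356 in control HSCs, with an interval of 1.59 to 1.82-fold. Its partner Cyc1, which hands electrons to it, differed by 1.15-fold.

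**Figure D3:**
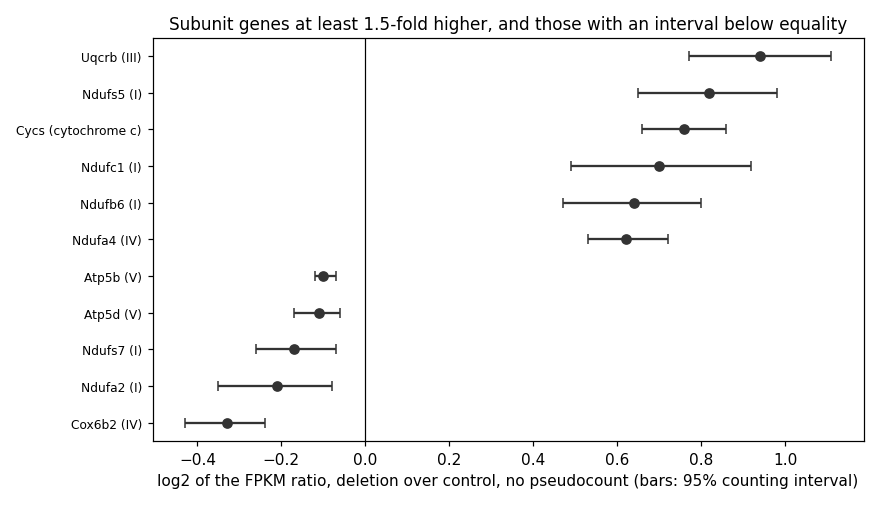
Log2 of the plain FPKM ratio, deletion over control, with 95% counting intervals for the 6 subunit genes past 1.5-fold on the FPKM + 1 scale, which leaves out Cox7a1, and the 5 with an interval below equality. Uqcrb is highest at 0.94 and Cox6b2 lowest at -0.33, and the bars cover counting error only.

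Complex IV, cytochrome c oxidase, reduces oxygen. Its catalytic subunits are mitochondrially encoded, and its nuclear subunits regulate and stabilise it. All 12 ubiquitous nuclear genes had a ratio above 0, with a median log2 ratio of 0.21, and 8 of the 10 with an interval lay above equality. Over protein-coding genes, 47.9% had a ratio above 0 and 27.4% an interval above equality. When each library was rescaled to the same total, that count did not hold, with Cox4i1 at a log2 ratio of -0.13 and Cox5b at -0.10, and the median of the 14 measured complex IV genes became 0.067. By mean FPKM, Cox6a1 and Cox8a were the most abundant nuclear-encoded subunits of the whole chain. Cox6a1 had 483 FPKM in the deletion library and 426 FPKM in the control library (1.13-fold), and Cox8a, which had no recovered fragment number, stood at 518 FPKM in deletion and 373 FPKM in control HSCs (1.39-fold). Ndufa4, named after complex I but a subunit of complex IV, had 101 FPKM in the deletion library and 65.5 FPKM in the control library (1.54-fold, interval 1.45 to 1.64). Cox7b was at 96.4 FPKM in deletion and 65.8 FPKM in control HSCs (1.46-fold, interval 1.37 to 1.57). Cox7a2 was at 95.5 FPKM in deletion and 73.1 FPKM in control HSCs (1.31-fold), and Cox7a2l, a relative that joins complexes III and IV into supercomplexes, at 160 FPKM in deletion and 131 FPKM in control HSCs (1.22-fold). Cox6b1 stood at 180 FPKM in deletion and 157 FPKM in control HSCs. Cox4i1, the largest nuclear subunit, and Cox5b, which binds zinc, had intervals that included equality, Cox4i1 at 241 FPKM in the deletion library and 239 FPKM in the control library, and Cox5b at 110 FPKM in deletion and 107 FPKM in control HSCs. Cox5a, the early assembly partner of Cox4i1, stood at 48.7 FPKM in deletion and 43.8 FPKM in control HSCs (1.11-fold, interval 1.04 to 1.19).

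Several complex IV subunits have isoform genes used mainly in lung, heart, skeletal muscle or testis. Most of them were near 0 here. Cox7b2 was listed at 0 in both libraries, and Cox4i2, Ndufa4l2 and Cox8b were listed at 0 in the deletion library against 5, 7 and 7 fragments in the control library. Cox8c had 9 fragments in the deletion library against 0 in the control library, and Cox6a2 had 9 in the deletion library against 8 in the control library. A count of 0 allows up to 3 fragments, so such genes were at the limit of this depth. Cox7a1, the heart and muscle form, had 3.77 FPKM in the deletion library and 2.37 FPKM in the control library, from 34 fragments in deletion and 22 in control HSCs, with an interval of 0.906 to 2.86-fold. The exception was Cox6b2 (chromosome 7, 4751792 to 4753094, minus strand, GRCm38), described as the testis form of Cox6b1. It had 79.8 FPKM in the deletion library and 101 FPKM in the control library, from 1489 fragments in deletion and 1937 in control HSCs. It was the lowest subunit of all (0.793-fold, interval 0.741 to 0.849), while Cox6b1 was 1.15-fold higher. Cox6b2 thus made up 30.8% of the FPKM of the Cox6b pair in the deletion library against 39.1% in the control library. No exon of another annotated gene overlaps Cox6b2.

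ATP synthase, complex V, turns the proton gradient into ATP. Of 17 genes 16 were measured, with a median log2 ratio of 0.084 (12 above 0, 4 below). The median became -0.062 when each library was rescaled to the same total and 0.016 when mitochondrially encoded genes were left out of the scaling. As deposited, the medians of its parts were not alike. The catalytic F1 head was at equality, with a median of -0.0033 over 5 genes. Atp5b, the catalytic beta subunit and the most abundant gene of the complex by mean FPKM, had 416 FPKM in the deletion library and 444 FPKM in the control library (0.936-fold, interval 0.921 to 0.951). Atp5a1, the alpha subunit, was at 431 FPKM in deletion and 426 FPKM in control HSCs. Atp5d, the delta subunit of the central stalk, had 142 FPKM in the deletion library and 154 FPKM in the control library (0.923-fold, interval 0.887 to 0.961), Atp5c1 (gamma) had 123 FPKM in both, and Atp5e (epsilon) stood at 82.0 FPKM in deletion and 74.9 FPKM in control HSCs.

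The peripheral stalk, which holds the head still while the rotor turns, had a median log2 ratio of 0.32 over 4 genes. Atp5h (subunit d) had the highest ratio of the nuclear complex V genes, at 121 FPKM in the deletion library and 88.6 FPKM in the control library (1.37-fold, interval 1.30 to 1.45). Atp5f1 (subunit b) was at 58.5 FPKM in deletion and 46.8 FPKM in control HSCs (1.25-fold) and Atp5j (coupling factor 6) at 34.2 FPKM in deletion and 27.3 FPKM in control HSCs (1.25-fold). Atp5o, the oligomycin sensitivity protein, stayed near equality at 60.3 FPKM in deletion and 58.7 FPKM in control HSCs, and a second annotated gene of that symbol was listed at 0 in both libraries. The rotor ring is built of subunit c, which comes from 3 genes with the same mature protein and different import sequences. Atp5g1 had 36.8 FPKM in the deletion library and 27.8 FPKM in the control library (1.33-fold, interval 1.26 to 1.40), while Atp5g2 was at 105 FPKM in deletion and 104 FPKM in control HSCs and Atp5g3 at 146 FPKM in deletion and 131 FPKM in control HSCs. Atp5g3 gave 50.9% of the FPKM of the 3 genes in the deletion library against 49.9% in the control library, and Atp5g1 gave 12.8% in the deletion library against 10.6% in the control library. Atp5k, subunit e, which helps ATP synthase form dimers, had 30.3 FPKM in the deletion library and 33.3 FPKM in the control library, with an interval of 0.777 to 1.06-fold.

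Of the 13 assembly and accessory factors among the members, 12 reached 1 FPKM, with a median log2 ratio of 0.12 and 11 above 0. They stood at far lower levels than the subunits, with medians of 9.99 FPKM in the deletion library and 8.29 FPKM in the control library, where subunits had medians of 58.3 FPKM in deletion and 53.9 FPKM in control HSCs. Ndufaf2, a chaperone of late complex I assembly, was 2.18-fold higher on plain FPKM, at 5.30 FPKM in deletion and 2.43 FPKM in control HSCs from 266 fragments in deletion and 126 in control HSCs (interval 1.76 to 2.71), although its log2 ratio with the pseudocount was 0.88 and so short of 2-fold. A noncoding RNA listed at 0 in both libraries shares 65.6% of its exonic bases on the opposite strand. Ndufaf8 was the only 1 of the 12 below 0, at 20.2 FPKM in the deletion library and 28.9 FPKM in the control library (0.699-fold, interval 0.599 to 0.815). Ndufaf4 stood at 9.22 FPKM in deletion and 6.28 FPKM in control HSCs (1.47-fold), and Sdhaf1, which helps insert the iron-sulfur clusters of Sdhb, at 1.93 FPKM in deletion and 1.02 FPKM in control HSCs from 81 fragments in deletion and 44 in control HSCs. Sdhaf3, at 0.909 FPKM in deletion and 0.881 FPKM in control HSCs, fell just under the minimum, while Ndufb2, at 1.56 FPKM in the deletion library and 1.09 FPKM in the control library, lay just over it.

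Promoters of these genes are known for sites of NRF1, of the ETS family factor GABP and of YY1, factors that tie nuclear genes to mitochondrial biogenesis. RefSeq promoter windows on GRCm38.p6, from 250 bases before to 50 after the gene's start, were found for 68 of 86 subunit symbols. The letters GCGCANGCG (NRF1 core), searched on both strands, were in the windows of 21 of the 68 genes (30.9%), against 7.03% of all 27025 genes in the table and 16.8% of 8160 measured protein-coding genes. The letters CCGGAAG (ETS core) were in 23.5%, against 9.93% and 22.4%, and AAGATGGCG (YY1 core) in 10.3%, against 1.64% and 4.18%. The ETS and YY1 letters can share bases, and 1 subunit gene held both. Subunits with the NRF1 letters had a median log2 ratio of 0.16 (21 genes), and measured subunits without them 0.19 (45 genes). Upstream sequence is shown for the highest ratios with an entry in the table, Ndufs5 and Cycs, and for the lowest, Cox6b2. Each runs 5′ to 3′ on the gene's strand over the 200 bases before the RefSeq start, with NRF1 letters in capitals. The windows are chr4:123718187-123718386 (minus strand) for Ndufs5, chr6:50566570-50566769 (minus strand) for Cycs and chr7:4753095-4753294 (minus strand) for Cox6b2.
Ndufs5: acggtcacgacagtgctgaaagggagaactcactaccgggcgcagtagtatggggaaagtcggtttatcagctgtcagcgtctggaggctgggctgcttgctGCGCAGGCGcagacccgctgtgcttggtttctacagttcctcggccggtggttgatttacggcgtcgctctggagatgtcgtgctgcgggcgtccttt
Cycs: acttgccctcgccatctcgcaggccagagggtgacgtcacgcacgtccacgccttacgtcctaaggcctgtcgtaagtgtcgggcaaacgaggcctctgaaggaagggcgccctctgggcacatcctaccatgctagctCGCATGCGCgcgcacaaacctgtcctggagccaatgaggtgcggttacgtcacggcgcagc
Cox6b2: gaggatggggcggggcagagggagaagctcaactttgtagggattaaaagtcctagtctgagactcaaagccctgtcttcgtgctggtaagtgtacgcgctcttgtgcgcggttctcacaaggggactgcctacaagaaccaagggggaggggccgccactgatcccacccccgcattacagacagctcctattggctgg
The NRF1 letters begin 98 bases upstream of the Ndufs5 start on the sense strand and 61 bases upstream of the Cycs start on the opposite strand, and none of the 3 sets of letters is in the 200 bases shown for Cox6b2. Other genes at either end differed in this. Ndufc1, the next highest ratio with an entry, and Ndufs7, among the lowest, hold none of the 3 sets in the same 200 bases. Atp5k, also among the lowest, holds the NRF1 letters on both strands, from 50 bases upstream. In the rest of the window used for the shares above, Ndufc1 and Ndufs7 hold the YY1 letters and Atp5k holds the ETS letters. A match to letters is a description and not a bound site.

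The subunits that mitochondrial DNA contributes to the same complexes differed more than the nuclear ones. Summed over 7 complex I genes, mitochondrially encoded mRNA was 22980 FPKM in the deletion library and 14242 FPKM in the control library (1.61-fold), beside a nuclear sum of 1663 FPKM in deletion and 1457 FPKM in control HSCs (1.14-fold). For complex III the mitochondrial fold was 1.89 and the nuclear fold 1.09, for complex IV 1.75 and 1.18, and for complex V 2.01 and 1.03. The complex V sum is nearly all mt-Atp6, at 103 FPKM in deletion and 48.9 FPKM in control HSCs. The other gene, mt-Atp8, was the only 1 of the 13 mitochondrial genes below 0, at 3.49 FPKM in deletion and 4.23 FPKM in control HSCs (0.825-fold). Over all complexes, mitochondrial FPKM per nuclear subunit FPKM was 7.20 in the deletion library against 4.71 in the control library. Complex II, which has no mitochondrial gene, had a nuclear fold of 1.16. When each library was rescaled to the same total, the nuclear fold became 0.99 for complex III and 0.93 for complex V. The mitochondrial sums rest on a few genes, since mt-Co1 stood at 18867 FPKM in deletion and 10808 FPKM in control HSCs and mt-Co3 at 78.6 FPKM in deletion and 44.0 FPKM in control HSCs.

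**Figure D4:**
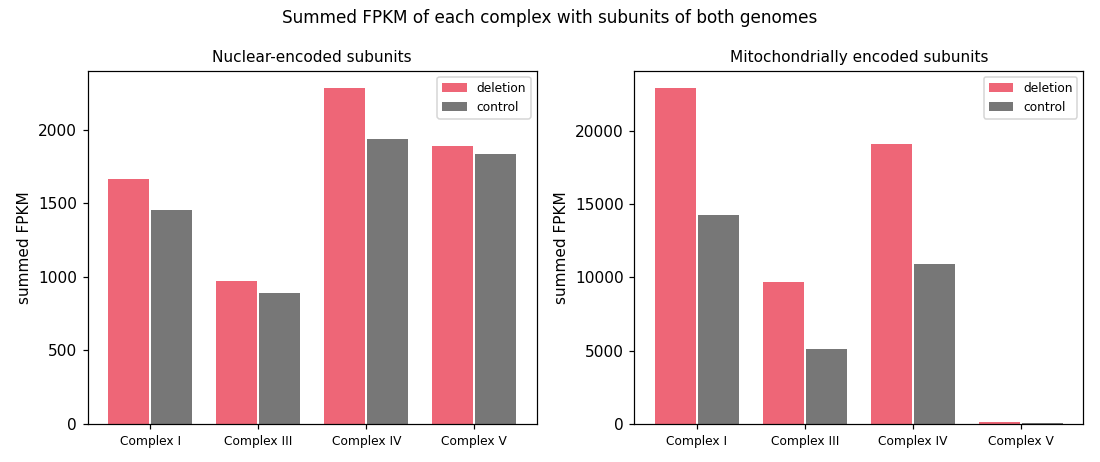
Summed FPKM of the nuclear-encoded (left panel) and mitochondrially encoded (right panel) subunit genes of the complexes that hold both, with the deletion library in red and the control library in grey. The bars of the deletion library are higher in every pair, by 1.03 to 1.18-fold for nuclear sums and by 1.61 to 2.01-fold for mitochondrial sums, and the vertical axes differ.

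Exon length moved with the ratio across the whole table. Protein-coding genes with up to 1000 bp of exon had a median log2 ratio of 0.17, those up to 2000 bp 0.10, those up to 4000 bp 0.04 and those over 4000 bp -0.06. Respiratory chain subunits are short, with a median of 1696 bp against 4392 bp for protein-coding genes. Within those length classes the medians of the subunits were 0.28 (18 genes), 0.13 (31 genes), 0.18 (20 genes) and 0.14 (11 genes), above that of the class in each. After subtraction of the class median, 57 of 80 subunits were above 0 and the median of the 80 was 0.11, and that of complex V was 0.0039. How far exon length accounts for the difference was not tested. Level moved with the ratio as well. Protein-coding genes at 100 FPKM or more had a median of 0.11, where the 21 subunits at that level had 0.06, and at 20 to 100 FPKM the values were 0.02 and 0.22 (47 subunits). Across the 80 subunits, Spearman's rho of the ratio was -0.16 with exon length and -0.30 with mean FPKM, given as a description over genes that share both libraries.

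**Figure D5:**
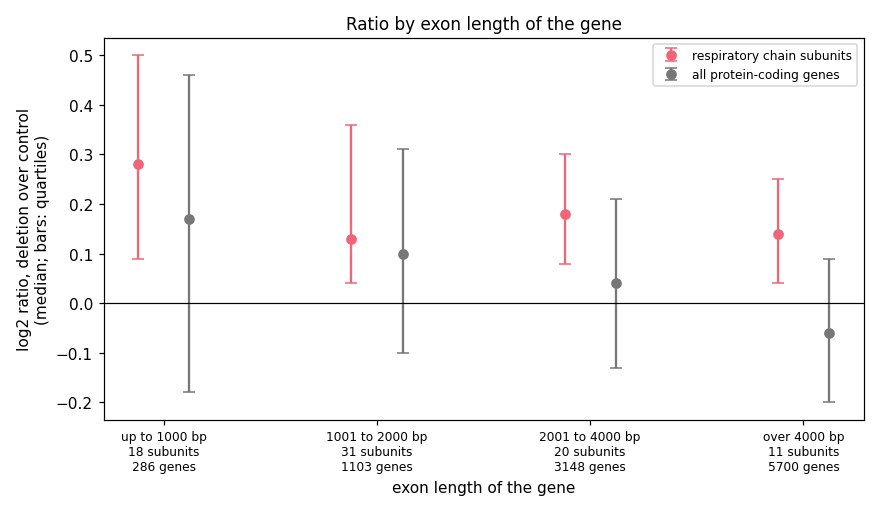
Median log2 ratio, deletion over control, with bars to the quartiles, for respiratory chain subunits (red) and all protein-coding genes (grey) in 4 classes of exon length. The grey medians decline from 0.17 to -0.06 with length, while the red medians lie between 0.13 and 0.28.

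Other nuclear genes for mitochondrial proteins had smaller medians than the 0.17 of all measured subunits. Beside the counts above 0 given here, 47.9% of protein-coding genes had a ratio above 0. Complexes I, II and IV lay above each list, while III (0.075) and V (0.084) lay below membrane and import and citric acid cycle genes. Median exon length was 3234 bp for membrane and import, 4145 bp for citric acid cycle, 2570 bp for assembly and 4562 bp for regulator genes. That of subunits was 1696 bp, and the contrast was not adjusted for length. Genes of the outer and inner membrane and of protein import had a median log2 ratio of 0.14, with 17 of 18 above 0, from Phb (prohibitin) at 66.3 FPKM in the deletion library and 68.1 FPKM in the control library to Slc25a5, the ATP/ADP carrier, at 514 FPKM in deletion and 407 FPKM in control HSCs. Citric acid cycle and pyruvate dehydrogenase genes had a median of 0.11, with 13 of 16 above 0, from Ogdh at 53.2 FPKM in deletion and 59.5 FPKM in control HSCs to Suclg1, a subunit of succinyl-CoA ligase, at 29.3 FPKM in deletion and 18.3 FPKM in control HSCs. When each library was rescaled to the same total, those medians became -0.0058 for membrane and import genes and -0.036 for the citric acid cycle. Assembly factors outside the naming rule had a median of 0.06, with 21 of 35 above 0. Among them Cox20, a chaperone of the COX2 subunit, was 1 gene past 2-fold, at 8.14 FPKM in the deletion library and 3.26 FPKM in the control library, and Pet100 was lowest at 4.32 FPKM in deletion and 6.73 FPKM in control HSCs. Regulators of mitochondrial biogenesis had a median of 0.03, with 7 of 12 above 0 and none past 2-fold. Tfb1m, which methylates mitochondrial ribosomal RNA, was highest at 4.64 FPKM in deletion and 3.43 FPKM in control HSCs, and Polrmt, the mitochondrial RNA polymerase, was lowest at 15.8 FPKM in deletion and 17.7 FPKM in control HSCs. Nrf1 itself had 6.72 FPKM in the deletion library and 7.11 FPKM in the control library, Gabpa stood at 15.6 FPKM in deletion and 14.0 FPKM in control HSCs, and Ppargc1a, a coactivator of these factors, stood at 0.0630 FPKM in deletion and 0.105 FPKM in control HSCs.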

How the data were processed

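RNA of sorted HSCs was sequenced with 1 library per genotype, and the labels' genotypes define the groups. The deposited table holds FPKM that the authors calculated for 54531 Ensembl genes. The submitters' processing notes list Bowtie 0.12.2 and mm8 without a role, and which program and gene models gave the FPKM is not given in the sources used here. Gene types, exon lengths and positions came from GENCODE release M21 (GRCm38), and 37 genes had no entry. Symbols came from a table of gene names. The control column was matched by its description.

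FPKM times exon length fell within 0.02 of whole fragments for 96.1% of genes above 0 in the deletion library against 96.5% in the control library, and genes off whole numbers got no interval. Exons of 36 of the 100 members overlap those of another gene, and since strand handling is not stated, reads of such genes cannot be told apart. Reads can also be shared with processed pseudogenes. FPKM depends on each library's depth and on the exon length assigned to a gene. Levels, shares and rankings compared between genes, such as the most abundant, carry that length. In a gene's ratio between libraries the same length divides both values. Mitochondrial genes took 13.7% of summed FPKM in the deletion library against 8.91% in the control library, which is a share of FPKM and not of fragments.

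No test was made, since there is 1 library per genotype. The depth recovery and intervals were run on simulated Poisson counts, turned into FPKM with the same exon lengths. That simulation shares the method's assumptions, so it checks the code only. It cannot show how the deposited FPKM were made or what error beyond counting they carry. Genes named were core (1 of them is not reported here), complex II, cytochrome, isoform and subunit c genes whatever their values, with the 3 highest and 3 lowest ratios and the most abundant gene of complexes I, III, IV and V, and the ends of each companion list. Other genes named, among them the remaining F1 and peripheral stalk genes, Ndufc2, Ndufb2, Nrf1, Gabpa, Ppargc1a and the assembly factors among the members, were chosen after their values were seen. The members and lists were chosen with earlier results of these data known. Python 3.11.15, pandas 2.3.3 and SciPy 1.17.1 were used.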

Additional observations from a re-analysis of the deposited data

How the results depend on the processing

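Values rest on 1 library per genotype, so replicate spread is unknown and no paired analysis was possible. Rescaling both libraries to a common total changed most. The median log2 ratio became 0.027 for all subunits, 0.017 for complex I, 0.13 for II, -0.071 for III, 0.067 for IV and -0.062 for V, that of the citric acid cycle list -0.036 and of the membrane and import list -0.0058. Sdha became -0.062, and folds of summed FPKM became 1.01 for all subunits, 0.99 for complex III and 0.93 for V, and the cause was not tested. Leaving mitochondrially encoded genes out of the scaling gave medians of 0.10 for all subunits, 0.091 for complex I, 0.20 for II, 0.0070 for III, 0.14 for IV and 0.016 for V, and summed folds of 1.07 for all subunits and 0.98 for complex V, and centring on the median of all genes gave 1.13 for all. The mean in place of the median gave 0.20 for complex III. Subtracting the median of the exon length class, chosen after seeing the data, gave 0.0039 for complex V. Of the subunits, 6 were higher at 1.5-fold, and at 1.2-fold 28 were higher and 1 lower. The share of all genes past 1.2-fold was not computed, so the counts at 1.2-fold have no background and are not read further. Without a minimum FPKM, 1 was higher (Cox8c) and 1 lower (Cox8b) at 2-fold, both near 0. With a pseudocount of 0.1 or 5, with the minimum dropped or set to 5 FPKM, or with trimmed-mean scaling, the median of all subunits lay between 0.15 and 0.18 and those of complexes I to V stayed above 0. With the assembly factors it was 0.16.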

Other observations

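The symbol rule also matched 13 genes that are not protein-coding, of which 5 were listed at 0 in both libraries. Ndufb1-ps, annotated as a bidirectional promoter RNA, had 35.6 FPKM in the deletion library and 29.7 FPKM in the control library, from 691 fragments in deletion and 595 in control HSCs. The processed pseudogene Ndufab1-ps had 17.4 FPKM in the deletion library and 10.5 FPKM in the control library, from 137 fragments in deletion and 85 in control HSCs. Cox6c2 had 8 fragments in the deletion library against 1 in the control library, and Ndufs6b had 11 in the deletion library against 2 in the control library.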
